A study of Amphimedon queenslandica and Mnemiopsis leidyi and Nematostella vectensis with 36 samples.

Results

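Regions held by exactly 2 of 5 transcription factors, EGR and SP41, were the object of study, in the genome of the marine sponge Amphimedon queenslandica. Peaks from 16 lists were pooled, and peaks sharing at least 1 bp on a contig were merged into a region. A region was kept when it held a peak of EGR and a peak of SP41 and none of NRF, YY1 or GLI. This gave 4794 of 52356 merged regions (9.16%), with 18572 peaks on 1286 contigs and 1540578 bp covered. The regions were chosen by the measured peak calls of all 16 lists, so numbers of peaks and peak strengths are given as a description, with no test.

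EGR (early growth response) and SP (specificity protein) factors each contact DNA through a cluster of C2H2 zinc fingers. In vertebrates both families prefer GC-rich sites, which can contain CpG, the dinucleotide that carries most cytosine methylation in animals. Some mammalian promoters are known to carry EGR and SP sites that overlap. SP proteins act widely at promoters of vertebrate genes, and EGR proteins are known there as immediate early genes induced by growth factors.

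The binding was measured in a test tube by DNA affinity purification sequencing. A factor was made by in vitro translation as a fusion to the HaloTag, a protein tag used for capture, and the DNA fragments it held were sequenced. In ampDAP-seq the adapter-ligated DNA had first been copied for 11 PCR cycles, which removes cytosine methylation (amplified DNA). In DAP-seq it had not (native DNA). The DNA of all libraries came from swimming larvae at 0 h, from individuals of Heron Island, and was sheared to a mean of 200 bp. The DNA had been extracted and sheared before binding, so the regions are places where DNA was held outside chromatin.

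EGR was tested as DNA binding domain (DBD), and SP41, which some labels call SP, as DBD and as full length protein. Each of these 3 constructs had 1 library on amplified and 1 on native DNA, which gives 6 lists, and NRF, YY1 and GLI supplied the other 10. A library with the empty HaloTag was the control for all lists of a kind of DNA. Usable fragments of the 6 libraries ran from 2161903 to 2945461. With 1 library each there was no replicate error against which to set a difference, and the ranges in parentheses, 95% Wilson intervals, reflect counting error alone. Contig numbers and positions are those of the deposited lists. The sources used here name no genome build for them, and no gene annotation was used here.

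EGR and SP41 shared many regions with no other factor. Of the 8433 regions with both, 4794 (56.8%) held no other, and 3639 held further factors. These 4794 regions made up 35.4% of the 13549 regions with an EGR peak and 20.5% of the 23412 with a SP41 peak. EGR alone held 3755 regions and SP41 alone 10459. Only pairs of EGR or SP41 with YY1 or GLI were set beside it. Of the 52356 merged regions, exactly SP41 and YY1 held 2223, SP41 and GLI 1383, EGR and GLI 611, and EGR and YY1 492. The lists differ in length, and the part of length in these numbers was not tested. The YY1 DBD lists, with 18619 peaks on amplified and 13140 on native DNA, were longer than the EGR lists, with 6336 and 12855. The GLI lists, with 4837 and 8828 peaks, and the YY1 full length lists, with 1606 and 4528, were shorter than the EGR lists. Without the EGR DBD DAP library the number was 2333 in place of 4794.

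Nearly all regions of EGR and SP41 held a native EGR peak, and no single SP41 list was present in as many. An EGR peak lay in 2314 (48.3%, 46.9 to 49.7) on amplified DNA and in 4590 (95.7%, 95.1 to 96.3) on native DNA. Over all merged regions the EGR lists reached 11.9% on amplified and 24.2% on native DNA, and over all regions with EGR 45.8% and 93.5%. The shares of EGR in these regions differed in the direction of the list lengths, 6336 peaks on amplified and 12855 on native DNA. Nothing about the regions can be read from these shares, because the rule used the same peaks.

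SP41 was spread more evenly over its lists. On amplified DNA the SP41 DBD had a peak in 3325 of the regions (69.4%, background 28.8%), and the full length protein in 2994 (62.5%, background 22.5%). On native DNA the SP41 DBD had a peak in 2928 (61.1%, background 22.3%), and the full length protein in 2118 (44.2%, background 13.7%). The background is the share of all 52356 merged regions with a peak of that list. Every region of EGR and SP41 must hold a SP41 peak, so shares above this background are largely built into the rule. Among the 23412 regions with a SP41 peak, the DBD had one in 15099 on amplified and in 11685 on native DNA. The full length protein had one in 11799 and in 7154 of them. For both SP41 constructs the number was higher on amplified than on native DNA, as was the length of the list.

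**Figure D1:**
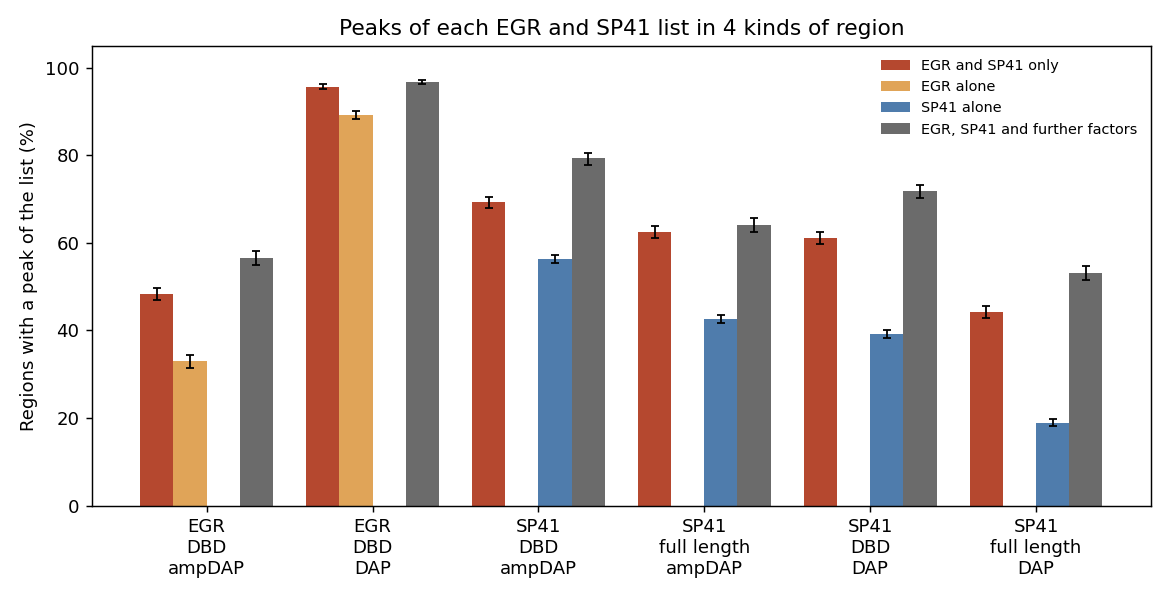
Share of regions (%, bars from 0) with a peak of each of the 6 lists, for regions of EGR and SP41 only (n = 4794), EGR alone (n = 3755), SP41 alone (n = 10459) and EGR, SP41 and further factors (n = 3639); lines are 95% Wilson intervals. In every list the regions of EGR and SP41 only lie between those with 1 factor and those with further factors, for example 44.2% against 18.9% and 53.2% for the SP41 full length DAP list.

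In each of the 6 lists the share in regions of EGR and SP41 stood above that in regions of a single factor. EGR was present on amplified DNA in 48.3% of them and in 33.0% (31.5 to 34.5) of regions with EGR alone, and on native DNA in 95.7% and 89.2%. The SP41 full length DAP list, the shortest of the SP41 lists, showed a wide gap, with 44.2% against 18.9% (18.2 to 19.7) in regions of SP41 alone. The SP41 DBD ampDAP list showed 69.4% against 56.4%. Regions with further factors stood higher still, with 56.6% for EGR on amplified DNA and 53.2% for SP41 full length on native DNA. A region with peaks of more lists has more chances to be counted in any of them, and lists on the same DNA share their control.

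Of the 45 ways in which the 6 lists can combine, 44 occurred. The most frequent was a peak in all 6 lists, in 728 regions (15.2%, 14.2 to 16.2). Among the 8433 regions with EGR and SP41, with or without others, 19.6% were in all 6 lists. The second was all lists but EGR ampDAP, in 475 regions. Next came 3 patterns of native EGR with SP41 DBD peaks and no full length peak: with the SP41 DBD DAP peak only in 332, with its ampDAP peak only in 319, and with both in 259. The pattern that did not occur was EGR on amplified DNA with both SP41 constructs on native DNA and nothing else. In all, 1029 regions (21.5%) rested on 2 lists, 1188 on 3, 966 on 4 and 883 on 5.

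By kind of DNA, the share of regions with both factors on a shared kind was below that in regions with further factors. EGR and SP41 had peaks on a shared kind of DNA in 85.8% (84.8 to 86.8) of the regions, and in 91.5% (90.5 to 92.3) of those with further factors. Over all regions with EGR and SP41, of which these regions are themselves a large part, it was 88.2%. Both factors had both kinds of DNA in 1371 regions (28.6%, 27.3 to 29.9). EGR on native DNA alone with SP41 on both kinds made up 1347 (28.1%). SP41 on native DNA alone was found with EGR on amplified DNA alone in 8 regions (0.167%, 0.0846 to 0.329), while the opposite combination, SP41 on amplified and EGR on native DNA only, had 673 (14.0%). The classes of each factor differ in size. EGR was on amplified DNA only in 204 regions and on native DNA only in 2480. SP41 was on native DNA only in 606 and on amplified DNA only in 1400. Lists of the same kind of DNA also share their empty HaloTag control. What part class size and control have in these combinations, and in the share on a shared kind, was not tested.

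**Figure D2:**
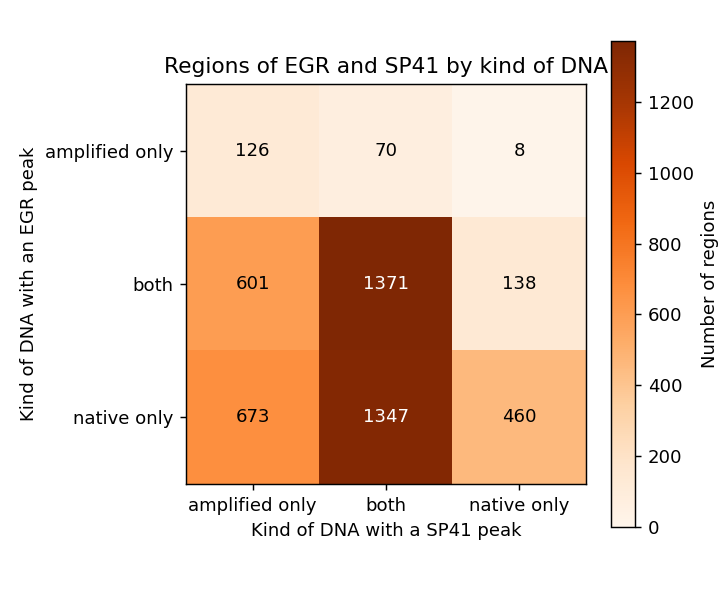
Number of the 4794 regions by the kind of DNA with an EGR peak (rows) and with a SP41 peak of either construct (columns); darker cells hold more regions. The cells with EGR on both kinds or on native DNA only and SP41 on both kinds hold 1371 and 1347 regions, and the row with EGR on amplified DNA only holds 126, 70 and 8.

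The strongest region of each combination is an extreme of its class, and is given here as an example in single libraries. With EGR and SP41 on amplified DNA only, it lay at contig 13459, positions 225250 to 225477. EGR had 7.62-fold enrichment there, the SP41 DBD 6.3-fold and the SP41 full length protein 6.82-fold, with no peak of any of them on native DNA. With EGR and SP41 on native DNA only, it was at contig 13490, positions 281294 to 281777, with 8.08-fold for EGR, 5.58-fold for the SP41 DBD and 2.41-fold for the full length protein. The last of these had rank 6603 of 7341 in its list, so it was a weak peak. Fold enrichment is the authors' ratio between the pileup at a summit and the local background of the control. Values of different lists are not on a common scale.

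In other combinations the factors parted by kind of DNA. At contig 13355, positions 39168 to 39508, EGR had peaks on both kinds, with 2.78-fold on amplified and 25.4-fold on native DNA, and SP41 had them on native DNA only, with 9.75-fold for the DBD and 4.99-fold for the full length protein. The pileup of EGR, which counts fragments over the summit, was nevertheless 123 on amplified and 88 on native DNA. The ratio to the control and the fragments over the summit thus differed in opposite directions between the 2 libraries. At contig 13339, positions 77550 to 77769, EGR had 6.5-fold on amplified and 14.3-fold on native DNA, and the SP41 DBD had 5.37-fold on amplified DNA as the only SP41 peak. At contig 13438, positions 189012 to 189513, EGR had a native peak only (15.4-fold), while all 4 SP41 lists had peaks of 3.47-fold to 7.35-fold. At contig 13495, positions 94415 to 94656, a native EGR peak of 10.4-fold met an amplified SP41 DBD peak of 3.33-fold, and no other list had a peak. Where EGR was on amplified DNA only and SP41 on both kinds, the strongest region was at contig 13447, positions 85028 to 85412, with 7.37-fold for EGR. Its closest EGR and SP41 summits were 187 bp apart. The strongest of the 8 regions with EGR on amplified and SP41 on native DNA only was at contig 13026, positions 39248 to 39440, with 5.63-fold for EGR and 4.7-fold for SP41 full length.

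In these libraries the share of regions with EGR on both kinds of DNA was higher where SP41 was present. EGR had peaks on both in 44.0% (42.6 to 45.4) of the regions of EGR and SP41, in 22.2% (20.9 to 23.6) of regions of EGR alone and in 53.4% (51.8 to 55.0) of those with further factors. Over all regions with EGR the share was 39.4%. The 2 EGR lists were called against different controls. Strength went with this: the native EGR peaks of regions of EGR and SP41 had a median −log10 q of 12.3, against 7.64 in regions of EGR alone.

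Within quartiles of the native EGR list by −log10 q, the difference was smaller but kept its direction. In the weakest quartile, 15.9% (13.7 to 18.3) of the native EGR peaks in regions of EGR and SP41 had an amplified EGR peak in their region, against 10.6% (9.0 to 12.4) in regions of EGR alone. In the second quartile the shares were 29.0% (26.4 to 31.8) and 20.6% (18.3 to 23.1). In the third they were 47.1% (44.3 to 49.9) and 42.0% (38.5 to 45.6), with overlapping intervals. In the strongest quartile they were 81.1% (79.0 to 83.2) of 1342 peaks and 72.3% (66.2 to 77.7) of 231 peaks. Regions of EGR and SP41 were wider, so there was more room for a second EGR peak, and the part of width was not tested. The kinds of region were chosen by these same peak calls, and a second EGR peak can itself widen a region towards a SP41 peak. The shares within quartiles are therefore a description.

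SP41 was also on both kinds of DNA in a higher share of regions where EGR was present. It was so in 58.2% (56.8 to 59.5) of the regions of EGR and SP41, in 27.5% (26.6 to 28.4) of those of SP41 alone and in 67.6% of those with further factors, with 41.9% over all regions with SP41. With peaks under 5-fold set aside, the 58.2% became 28.2%. For the SP41 DBD, 62.0% of the native peaks of the weakest quartile had an amplified peak of the same construct where EGR was present, against 33.7% in regions of SP41 alone. In its strongest quartile the shares were 82.8% and 64.1%. For the full length protein they were 71.0% against 43.7% in the weakest and 97.4% against 92.1% in the strongest quartile. The same peak calls chose these kinds of region, so the shares are a description. Regions of EGR and SP41 were also wider than those of SP41 alone (median 270 against 177 bp), and the part of width was not tested.

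SP41 on amplified DNA was present in 87.4% of the regions of EGR and SP41 (background over regions with SP41 82.5%), and on native DNA in 70.8% (background 59.4%). Where EGR was on native DNA only, the SP41 DBD had a peak in 61.0% on amplified and in 62.8% on native DNA. Where EGR was on amplified DNA only, in 204 regions, these shares were 74.0% (67.6 to 79.6) and 29.9% (24.0 to 36.5). The full length protein stood at 54.4% and 40.6% in the first class, and at 60.8% and 18.1% in the second. The native SP41 shares were the lower ones in the class where EGR had no native peak, and the lists of 1 kind of DNA share a control.

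The peaks in these regions were of middling strength in their lists. The median percentile of their peaks by −log10 q, where 50 is the middle of the list, was 51.3 for EGR on amplified and 55.4 on native DNA. For the SP41 DBD it was 56.5 and 59.0, and for the full length protein 58.1 and 53.9. Peaks of EGR alone had 32.8 and 32.6, and peaks of SP41 alone had 37.9 to 39.9. Peaks in regions with further factors had 63.3 to 69.7. The order was the same in all 6 lists, with regions of EGR and SP41 between single factors and further factors.

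Fold enrichment gave a flatter picture than −log10 q, and for EGR and the SP41 DBD on amplified DNA hardly any order. Native EGR peaks had a median of 5.70-fold in regions of EGR and SP41, with quartiles of 4.32 and 7.78, against 4.83-fold in regions of EGR alone. Amplified EGR peaks had 5.07-fold and 5.09-fold in these kinds of region, although their median pileup was 37 against 24. For the SP41 DBD on amplified DNA the medians were 3.99-fold in regions of EGR and SP41 and 3.99-fold in regions of SP41 alone, with pileups of 36 and 26. On native DNA the SP41 DBD had 3.97-fold against 3.61-fold, and the full length protein 4.20-fold against 3.99-fold. The full length protein on amplified DNA had 5.26-fold against 4.96-fold.

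Counted from the lists, these regions took a larger share of EGR peaks than of SP41 peaks. The same 4794 regions are set here against unlike totals, 13549 regions with an EGR peak and 23412 with a SP41 peak. For regions, the smaller total gives the larger share, 35.4% against 20.5%. The shares that follow are of the peaks of each list, and the part of list length in them was not tested. The share was 37.0% of the EGR peaks on amplified and 36.1% on native DNA. For the SP41 DBD it was 22.0% on amplified DNA and 2978 of 11904 peaks on native DNA, and for the full length protein 25.4% and 29.5%. Among native EGR peaks it was 30.2% (28.6 to 31.8) in the weakest and 41.8% (40.1 to 43.5) in the strongest quartile, while the share in regions of EGR alone was 40.4% and 7.19%. Among amplified EGR peaks it stayed between 33.6 and 38.8%. Among SP41 full length ampDAP peaks it was 19.8% in the weakest and 32.0% in the strongest quartile, and in regions of SP41 alone 49.9% and 19.0%.

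**Figure D3:**
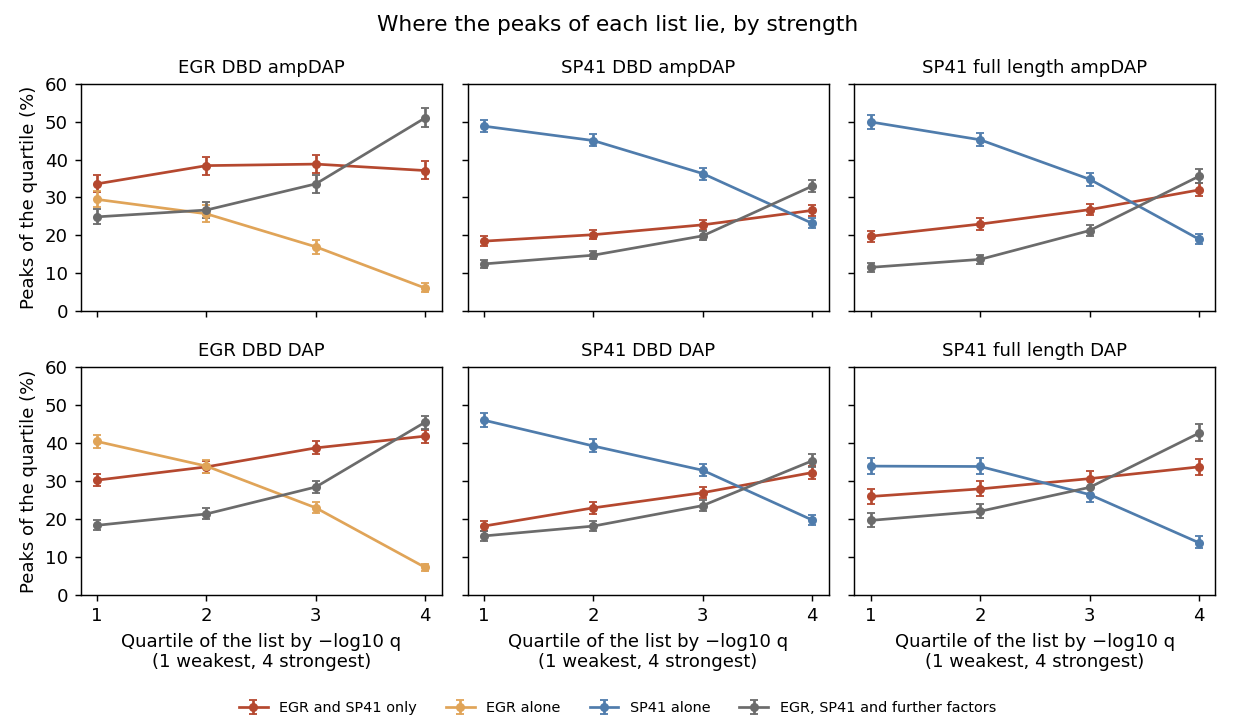
Share of a list's peaks (%) that lie in regions of EGR and SP41 only, of 1 factor alone and of EGR, SP41 and further factors, by quartile of the list's −log10 q, with amplified DNA in the upper and native DNA in the lower row; points carry 95% Wilson intervals. Shares in regions of a single factor are lower in the strongest than in the weakest quartile of every list, 7.19% against 40.4% for native EGR peaks, while those in regions of EGR and SP41 only differ less, 41.8% against 30.2%.

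The regions that ranked high in all 6 lists were led by contig 13110, positions 13965 to 14350. EGR had pileups of 295 on amplified and 189 on native DNA there, with ranks 12 of 6336 and 9 of 12855. The SP41 DBD had 192 and 70, and the full length protein 267 and 73. Its closest EGR and SP41 summits were 1 bp apart. The SP41 DBD fold enrichment on amplified DNA was 3.64, below the median of 3.99 of that list, although the peak had rank 110 of 15399 by −log10 q.

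At contig 13287, positions 129235 to 129819, fold enrichment was high in every list. EGR had 13.7-fold on amplified and 21.1-fold on native DNA, the SP41 DBD 7.84-fold and 7.12-fold, and the full length protein 14.4-fold and 7.27-fold. At contig 13489, positions 224580 to 225003, EGR had 10.2-fold and 14.2-fold, the SP41 DBD 6.59-fold and 5.16-fold, and the full length protein 9.54-fold and 6.99-fold. The next were at contig 13445, positions 85634 to 86202, contig 13500, positions 111035 to 112090, and contig 13228, positions 49442 to 49693. In these 3 the native EGR peaks had 13.6-fold, 10.7-fold and 19.8-fold, each above its amplified EGR peak, which had 10.5-fold, 6.8-fold and 9.49-fold. In all 6 regions the native EGR peak had the higher fold enrichment, and the amplified EGR peak the higher pileup. The whole EGR lists differed in the same directions, with medians of 5.39-fold on native and 5.07-fold on amplified DNA, and pileups of 26 and 36.

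**Figure D4:**
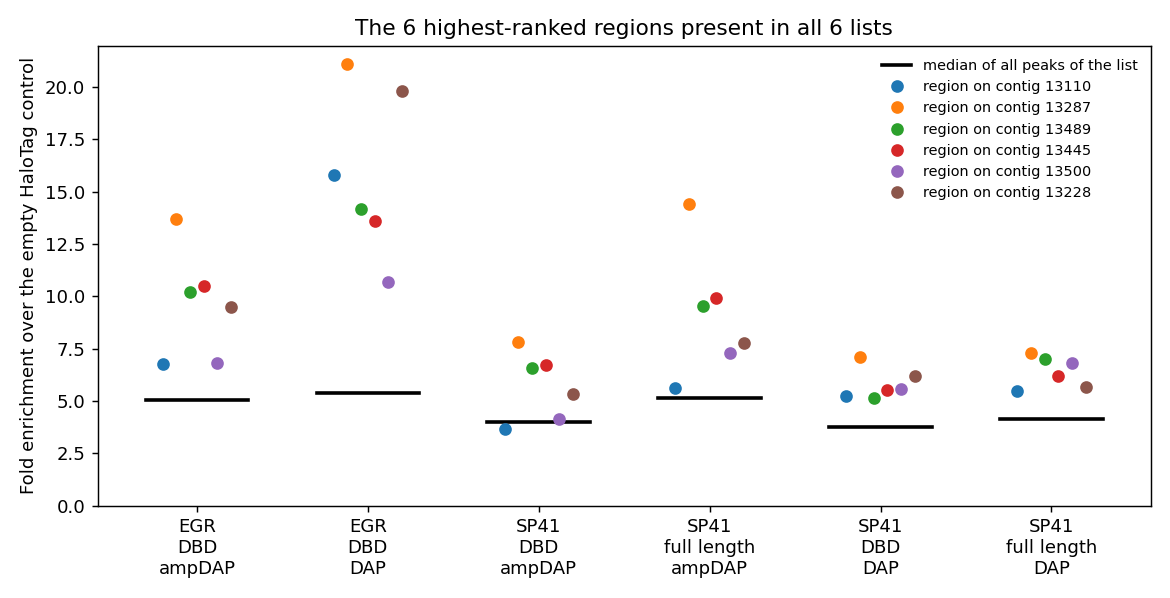
Fold enrichment over the empty HaloTag control of the 6 regions of EGR and SP41 that rank highest across all 6 lists (points, 1 colour a region) beside the median of all peaks of each list (black line); values of different lists are not on a common scale. Native EGR peaks reach 10.7-fold to 21.1-fold against a list median of 5.39-fold, and native SP41 DBD peaks 5.16-fold to 7.12-fold against 3.74-fold.

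Taken list by list, the highest peaks of these regions were not the same for the factors. The highest EGR ampDAP peak, rank 11 of 6336, lay in contig 13157, positions 57235 to 58142, and the highest EGR DAP peak was the one at contig 13110. The highest SP41 DBD ampDAP peak, rank 8 of 15399, was at contig 11580, positions 2335 to 2505, where EGR had rank 2707 on amplified and 338 on native DNA. The highest SP41 full length ampDAP peak, rank 4 of 12006, was at contig 13273, positions 117192 to 117531, with EGR at rank 2987 on amplified and 2516 on native DNA. On native DNA the SP41 DBD had rank 2 of 11904 at contig 11657, positions 4514 to 4696, and the full length protein rank 2 of 7341 at contig 11733, positions 8646 to 8857. Neither of these 2 regions had an amplified EGR peak. Their pileups on amplified DNA were 383 and 333 for the SP41 DBD, with only 3.05-fold and 2.67-fold enrichment.

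Strength of EGR and SP41 went together weakly across the regions. Between lists on different DNA, which share no control, Spearman's rho of −log10 q between native EGR and amplified SP41 peaks was 0.391 for the DBD (n = 3174 regions) and 0.388 for the full length protein (n = 2870). Between amplified EGR and native SP41 peaks it was 0.321 (n = 1370) and 0.281 (n = 1110). The same measure between the 2 EGR lists was 0.643 (n = 2110), and between the 2 SP41 DBD lists 0.428 (n = 2090). With fold enrichment in place of −log10 q, rho was 0.128 between native EGR and amplified SP41 DBD peaks, and 0.225 between the 2 EGR lists. The points are regions of the same libraries and share DNA composition, mappability and the selection of peaks past the cutoff, so these are descriptions.

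The summits of EGR and SP41, the points of highest pileup, were close together. The closest EGR and SP41 summits of a region were a median of 9 bp apart (quartiles 3 and 29 bp), and 327 regions had a summit at the same base. They were within 10 bp in 52.3% of the regions and within 50 bp in 83.4%. In 374 regions (7.8%) they were more than 100 bp apart. The closest of several pairs is nearer where there are more lists, with a median of 24 bp in regions on 2 lists and 3 bp in regions on all 6.

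Single pairs of lists avoid that. Native EGR and amplified SP41 DBD summits were a median of 22 bp apart (quartiles 8 and 57 bp, n = 3174), and native EGR and amplified SP41 full length summits 18 bp (quartiles 8 and 47 bp, n = 2870). Amplified EGR and native SP41 DBD summits were 24 bp apart, and amplified EGR and native SP41 full length summits 21 bp. These pairs share no control library. For comparison, summits of the same construct were set between amplified and native DNA. They were 11 bp apart for EGR (n = 2110), 18 bp for the SP41 DBD (n = 2090) and 15 bp for the SP41 full length protein (n = 1800). Each pair takes the regions with peaks in both its lists, so the regions differ between pairs. In the 728 regions on all 6 lists, native EGR and amplified SP41 DBD summits were 20 bp apart. There the 2 EGR lists were 10 bp apart and the 2 SP41 DBD lists 18.5 bp. The distance from EGR to SP41 was thus near the one between the 2 SP41 DBD lists and above the one between the 2 EGR lists.

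In other pairs of factors, summits lay farther apart. In regions of exactly EGR and GLI, native EGR and amplified GLI summits had a median distance of 31 bp (n = 224), and in regions of SP41 and GLI, amplified SP41 DBD and native GLI summits 35 bp (n = 693). With YY1 the medians were 66.5 bp for native EGR (n = 354) and 55 bp for the amplified SP41 DBD with native YY1 DBD (n = 781). Within 50 bp lay 71.7% of the pairs of native EGR and amplified SP41 DBD, 62.9% of those of EGR and GLI, and 43.2% of those of EGR and YY1. Distances are bounded by the overlap that defines a region, regions differ in width between the pairs, and no test was made.

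**Figure D5:**
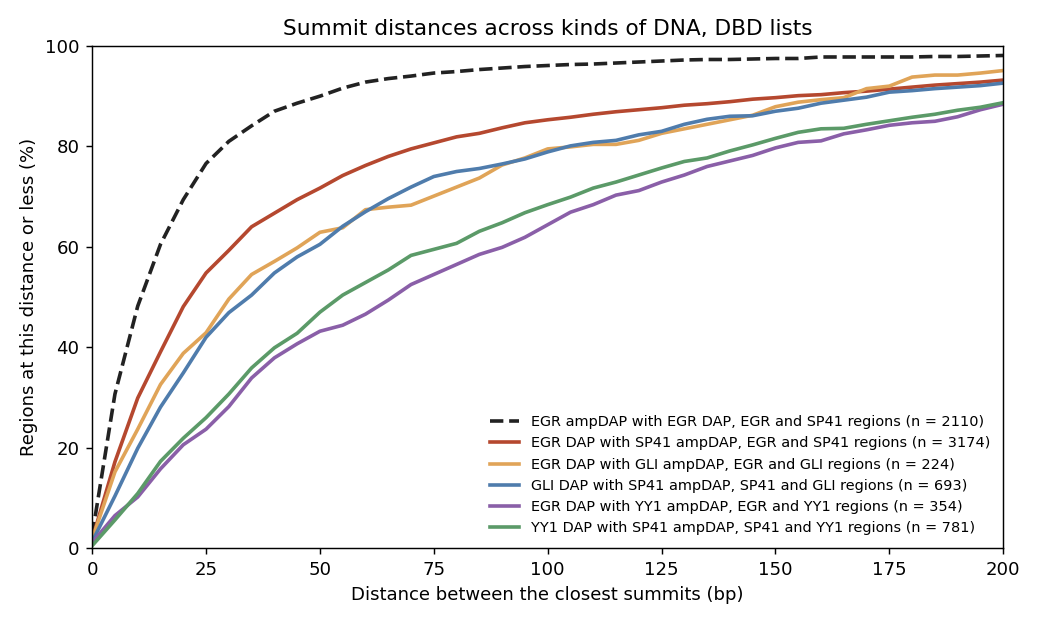
Cumulative share of regions (%) by the distance in bp between the closest summits of 2 DBD lists on different kinds of DNA, for regions of exactly the named factors; the dashed line gives the 2 EGR lists. Within 10 bp lie 48.2% of the pairs of EGR with EGR, 29.9% of EGR with SP41, 23.7% of EGR with GLI and 10.2% of EGR with YY1.

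The peaks overlapped broadly. A merged region with peaks of only EGR and SP41 must hold an EGR peak sharing at least 1 bp with a SP41 peak. A direct overlap in all 4794 regions was therefore fixed by the rule, and only its size is an observation. The direct overlap had a median of 172 bp (quartiles 149 and 219 bp). In 4325 regions a pair overlapped by at least 50% of both peaks. At the edge of the rule, 7 regions had a largest overlap of 10 bp or less. The smallest were 2 bp at contig 13152, positions 70845 to 71398, with native EGR at 12.8-fold and native SP41 DBD at 3.13-fold, and 3 bp at contig 13248, positions 47640 to 48021. Just outside, an EGR and a SP41 region were 6 bp apart at contig 13468, positions 298694 to 298859 and 298866 to 299035, and 8 bp apart at contig 13164, positions 86240 to 86385 and 86055 to 86231. In all, 55 such neighbours lay within 100 bp.

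Regions of EGR and SP41 were 142 to 1908 bp wide, with a median of 270 bp. The median was 175 bp for EGR alone, 177 bp for SP41 alone and 406 bp with further factors. The number of merged peaks differed in the same order, with a median of 4 peaks in a region of EGR and SP41, 1 in those of a single factor and 6 with further factors. Single peaks differed in length too. Native EGR peaks had a median of 207 bp in regions of EGR and SP41 and 174 bp in those of EGR alone. For native SP41 DBD peaks it was 220 bp, against 180 bp with SP41 alone. The part of peak number and peak length in the widths was not tested. In 178 regions some list had 2 or more peaks. The widest was at contig 13320, positions 142718 to 144625, with 10 peaks in all 6 lists and the closest summits at the same base, and the second at contig 13503, positions 482358 to 484065, with 8 peaks, among them a native EGR peak of 9.12-fold. The most peaks in a region were 11, in 8 regions, of which the first by contig number was at contig 7355, positions 609 to 1607.

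The regions were spread over the contigs unevenly, a property that the rule did not use. Contig 13514 had the most, 96 of its 588 merged regions (16.3%, 13.6 to 19.5), beside the 9.16% over all contigs. Over the 108 contigs with at least 100 merged regions, the share ran from 0.794% on contig 13464 (1 of 126) to 21.2% on contig 13445 (29 of 137), with a median of 9.73%. On 44 of these contigs the interval left out 9.16%. Neighbouring regions are not independent of each other, so these intervals are too narrow as a measure of differences between contigs.

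Neighbouring regions of EGR and SP41 on the same contig were a median of 8117 bp apart, and 441 of 3508 gaps (12.6%) were under 1000 bp. The share was 6.76% among the fewer regions of EGR alone and 12.9% among the more numerous regions of SP41 alone. The densest 20000 bp held 10 of them among 24 merged regions, on contig 13467 between positions 72308 and 90279, and 3 of the 10 were in all 6 lists. A region with a GLI, YY1 or NRF peak lay within 1000 bp of 46.2% of the regions of EGR and SP41, of 40.9% of those of EGR alone and of 45.8% of those of SP41 alone. Within 100 bp the shares were 4.03%, 4.61% and 4.63%.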

How the data were processed

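Per the labels' protocols, DNA recovered after binding was amplified for 20 cycles. The submitters' processing notes for the series list MACS2, Bowtie, BS-Seeker2, Bowtie2, fastp and CASAVA 1.8.2, without saying which aligner or build served these libraries. Each library's peaks come from a run of MACS2 2.1.2 by the authors, per the file headers, on paired fragments with 1 duplicate kept and q cut at 0.05, against the empty HaloTag library of the same DNA, and the larger library was randomly down-sampled, which can move weak peaks across the cutoff. The p-value and q-value columns are on the −log10 scale, per the file headers. Per the file headers, pileup is a signal of coverage at the summit and fold enrichment a ratio to the local background. The deposited positions are in bp, counted from 1.

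Usable fragments ran from 2161903 to 3168602 over all 16 libraries. Merging gave the same 52356 regions as bedtools 2.31.1 and was tested on simulated lists. Percentiles are ranks within a list; of several peaks of a list in a region, the one of highest −log10 q is given. Single regions were named by rules: the 6 highest over all lists, the highest of each list, the strongest of each combination of DNA, the widest, those at the edge of overlap, and the contig and window with most regions. The contigs of lowest and highest share were named after their values were seen. The regions, comparisons and thresholds were chosen with earlier results of these data known. The 2 YY1 DAP lists carry another run letter in their headers. The 18 methylation and hydroxymethylation libraries were not analysed here. Python 3.11.15, pandas 2.3.3, numpy 2.4.6, statsmodels 0.14.6 and matplotlib 3.10.9 were used.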

Additional observations from a re-analysis of the deposited data

Results flagged for a closer look

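EGR and SP41 differed in the direction from native to amplified DNA. In regions of EGR and SP41, the log2 ratio of regions with an ampDAP peak to regions with a DAP peak was −0.99 for the EGR DBD (2314 against 4590 regions), 0.18 for the SP41 DBD (3325 against 2928) and 0.50 for the SP41 full length protein (2994 against 2118). The same log2 ratios of whole list lengths were −1.02, 0.37 and 0.71, in the same directions. With 1 library each, the difference between the factors was not tested.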

How the results depend on the processing

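No paired analysis was possible because each construct and kind of DNA has 1 library. The number of regions, 4794, was 2604 among peaks of at least 5-fold enrichment, 2878 in the ampDAP lists only and 2354 with the 6 lists cut to 6336 peaks each. Leaving out 1 library gave 2333 to 4729 regions, the lowest without the EGR DBD DAP library. It was within 1.5 times of the main number elsewhere, for example 3718 in the DAP lists only, 5927 without the YY1 lists, 6497 without the GLI lists and 5025 without the 2 YY1 DAP lists, an alternative added once the data had been seen. With −log10 q of at least 5, EGR was on amplified DNA in 52.3% and on both kinds in 48.0%, SP41 in 90.1% and 54.9%, and both factors shared a kind of DNA in 84.1%. At 5-fold or more, EGR was on both kinds in 42.5%, SP41 was on amplified DNA in 81.1% and on both kinds in 28.2%, and a kind of DNA was shared in 77.9%. Without the SP41 full length lists, SP41 was on amplified DNA in 79.7% and on both kinds in 50.3%. Without the SP41 DBD lists the values were 90.4% and 54.8%, and a kind of DNA was shared in 83.1%. That share was 87.1% with reciprocal overlap of at least 50% and 87.5% with summits within 50 bp. The median summit distance of 9 bp was 23 bp over all pairs, 20 bp between the strongest peaks, 12 bp on amplified and 19 bp on native DNA. The median percentile by fold enrichment was 49.3 for SP41 DBD ampDAP, against 56.5 by −log10 q and 58.3 by pileup. For SP41 full length ampDAP it was 52.7, against 58.1 and 59.5, for SP41 DBD DAP 56.7, against 59.0 by −log10 q, and for SP41 full length DAP 52.3, against 56.0 by pileup. Apart from the choices of construct, list length and summit pair, whose construction changes what is counted, the cause was not tested. The caller's cutoff limits what counts as absent: a region without a peak of NRF, YY1 or GLI may hold fragments under the cutoff at this depth.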
